A study of Mus musculus with 6 samples.

Results

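Chemokines and chemokine receptors were examined in the liver of mice fed a high-fat diet (HFD), as a set of 53 protein-coding genes among the 45777 genes of the deposited table. The members were chosen by name: symbols made of Ccl, Cxcl, Ccr or Cxcr and a number, together with Cx3cl1 and Cx3cr1. This gave 36 ligands and 17 receptors. A further symbol of this form, Cxcl11, is annotated as a transcribed pseudogene and was not a member, although it had reads in all 6 libraries (41, 60 and 21 in LT and 35, 52 and 62 in the libraries labeled Fpn-LKO).

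The samples were 6 livers with 1 library per mouse, 3 from LT mice and 3 from Fpn-LKO mice. LT mice are littermates that carry the floxed Slc40a1 alleles (Fpn fl/fl) without Cre, and Fpn-LKO mice carry the same floxed alleles together with Alb-Cre. Slc40a1 encodes ferroportin (Fpn), the iron exporter of the cell. The albumin promoter directs Cre to hepatocytes, so that Kupffer cells, which also express Fpn, keep the gene. All mice were males with the strain label C57BL/6, the floxed line came from a 129S strain and was backcrossed to C57BL/6J for 10 generations, and the HFD supplied 60% of energy as fat from 8 weeks of age. The age at tissue collection and the weeks on diet of these 6 mice are not given in the sources used here, and all 6 libraries share a single batch in the labels. The question put to the data was whether chemokine and receptor transcripts differ in the HFD-fed liver once hepatocytes lack Fpn.

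Chemokines are small secreted proteins that guide leukocytes along a gradient, and their receptors are G protein-coupled receptors on the cells that respond. In the liver, ligands are made by hepatocytes, stellate cells, sinusoidal endothelium and Kupffer cells, whereas most receptor transcripts belong to leukocytes. The pairs Ccl2 with Ccr2, Cxcl1 with Cxcr2 and Cxcl9 or Cxcl10 with Cxcr3 are known for drawing monocytes, neutrophils and activated T cells into the steatotic liver.

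Before the genotypes were compared, the labels and libraries were examined. Slc40a1 had 154, 180 and 126 CPM (a read count relative to its TMM-scaled library total) in the LT livers and 143, 143 and 176 CPM in the libraries labeled Fpn-LKO, a log2 fold change of 0.0073 (SE 0.16, adjusted p = 0.995). The count of the targeted gene was thus not lower under the Fpn-LKO label. It sums the whole gene and does not isolate the deleted part, and each direction given below rests on the labels. Total counts lay between 43086184 and 47778683 per library. All 10 markers of Kupffer cells and macrophages had reads in every library, and 9 of the 10 were highest in Fpn-LKO replicate 3, whose summed level of 608 CPM compared with 285 to 442 CPM in the other libraries. LT replicate 3 stood apart in Spp1, a gene of cholangiocytes and recruited macrophages, with 83.1 CPM against 11.1 to 27.7 CPM elsewhere. Red blood cell genes summed to 351 to 941 CPM in LT livers and 474 to 1243 CPM in the libraries labeled Fpn-LKO. Sinusoidal endothelium markers summed to 287 to 345 CPM in LT livers and 267 to 283 CPM in the others, without overlap. The exact two-sided permutation test gave p = 0.1, the lowest it can give here. Of these 6 markers, 4 had log2 fold changes below 0 and 2 above. Stellate cell markers summed to 396 to 477 CPM in LT livers and 438 to 447 CPM in the others. Hepatocyte markers gave 63356 to 78176 CPM across the 6 livers.

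Promoter sequences were taken from RefSeq (GRCm38.p6) for the 39 of 53 members with an entry, as the 250 bases before the annotated start. Both strands were searched for GGG and TTCC with 3 bases of any kind between them, a form of the κB element bound by NF-κB, and for GAAA repeated after 2 bases of any kind, the core of the interferon-stimulated response element. The κB letters were present in 9 of the 39 members, which were Ccl1, Ccl9, Ccl20, Ccr3, Ccr6, Cxcl1, Cxcl2, Cxcl3 and Cxcl10, and in 5.31% of all 27025 genes with a promoter. The interferon letters were present in 3 members (Ccl19, Cxcl10 and Cxcl14) and in 3.46% of all genes. Of the 10 members with a promoter entry and a mean of at least 1 TPM (a level scaled to transcript length), 3 held the κB letters. These were Ccl9, Cxcl1 and Cxcl10, and they are printed as the members at this level that held the κB letters. Cxcl12, the ligand with the highest level, is printed beside them because its window held neither motif. All 4 run 5′ to 3′ on the gene's strand and end at the base before the start. Capitals mark the motifs and are runs of overlapping matches where these touch.
Ccl9: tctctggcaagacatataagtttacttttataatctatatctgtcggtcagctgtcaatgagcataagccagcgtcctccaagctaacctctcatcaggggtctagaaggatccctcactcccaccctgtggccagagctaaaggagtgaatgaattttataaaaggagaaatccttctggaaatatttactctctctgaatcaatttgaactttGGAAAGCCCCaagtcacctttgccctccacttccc
Cxcl1: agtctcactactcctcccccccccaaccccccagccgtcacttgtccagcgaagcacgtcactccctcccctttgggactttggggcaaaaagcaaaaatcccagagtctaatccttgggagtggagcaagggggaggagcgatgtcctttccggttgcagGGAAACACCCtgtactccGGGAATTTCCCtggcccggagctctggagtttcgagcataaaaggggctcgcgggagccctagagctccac
Cxcl10: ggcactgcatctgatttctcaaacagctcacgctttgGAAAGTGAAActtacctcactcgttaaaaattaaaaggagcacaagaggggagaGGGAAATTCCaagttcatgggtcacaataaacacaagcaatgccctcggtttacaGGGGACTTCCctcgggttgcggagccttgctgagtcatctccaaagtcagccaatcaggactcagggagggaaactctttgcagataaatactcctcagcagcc
Cxcl12: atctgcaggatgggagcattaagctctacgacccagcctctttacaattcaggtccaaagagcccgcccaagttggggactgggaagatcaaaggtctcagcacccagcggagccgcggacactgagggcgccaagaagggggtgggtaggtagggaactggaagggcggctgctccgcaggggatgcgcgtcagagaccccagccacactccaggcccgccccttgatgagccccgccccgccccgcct

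The Ccl9 window lies at chr11:83578637-83578886 on the minus strand, with the κB letters beginning 35 bases before the start. The Cxcl1 window, at chr5:90890995-90891244 on the plus strand, held 3 κB matches, which began 89, 71 and 70 bases before the start, and those at 71 and 70 overlap. In the Cxcl10 window, at chr5:92348890-92349139 on the minus strand, κB letters began 159 and 104 bases before the start and the interferon letters 213 bases before it. The Cxcl12 window lies at chr6:117168285-117168534 on the plus strand. Ccr2 has an entry that held neither motif. A match is a run of letters and was not tested as a binding site in these livers.

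Of the 53 members, 40 had at least 1 read in any library, 26 ligands and 14 receptors, and 22 had reads in all 6. No read was counted for 13 members. These were the ligands Ccl1, Ccl7, Ccl8, Ccl17, Ccl20, Ccl26, Ccl28, Cxcl3, Cxcl15 and Cxcl17 and the receptors Ccr4, Ccr6 and Ccr8. A count of 0 allows up to 3 reads, which is 0.0603 to 0.0725 CPM per library and covers counting error only. Ccl20 is the ligand of Ccr6, Ccl17 is a ligand of Ccr4, and Ccl1 and Ccl8 are ligands of Ccr8, so the Ccr6 and Ccr8 pairs were at 0 on both sides. Ccl22, the other ligand of Ccr4, had 4 reads, all in LT replicate 2. Only 13 members reached a mean of 1 TPM, and 14 reached a mean of 1 CPM.

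**Figure D1:**
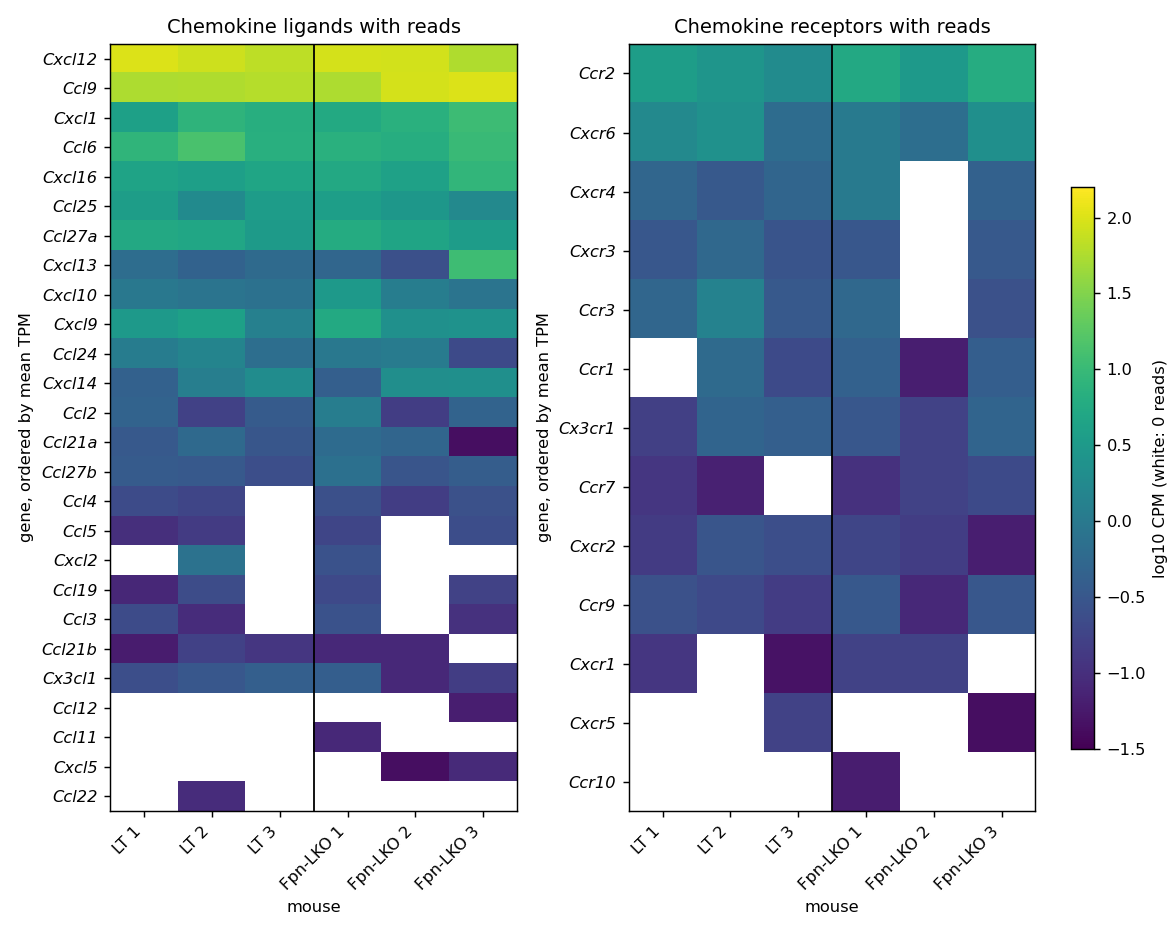
Heat maps of the 26 ligands (left) and 13 of the 14 receptors (right) with reads. Each row is a gene, ordered from the highest mean TPM, each column is a mouse, and color gives log10 CPM, with white for 0 reads. Cxcl12 and Ccl9 head the ligands in all 6 livers, Ccr2 and Cxcr6 head the receptors shown, and Fpn-LKO replicate 2 is white for Cxcr4, Cxcr3 and Ccr3.

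Ligand transcripts far exceeded receptor transcripts. Summed mean levels were 108 TPM for the ligands and 6.65 TPM for the receptors, a ratio of 16.3. Cxcl12, which holds hematopoietic cells and lymphocytes in place through Cxcr4, and Ccl9, a rodent ligand of Ccr1, together gave 69.8 TPM, or 64.4% of the ligand total.

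Pairing each ligand with its best-known receptor showed how unequal the sides were in whole liver. For Ccr1, the ligands Ccl9 and Ccl6 summed to a mean of 39.2 TPM and the receptor was at 0.125 TPM. Cxcl12 was at 38.6 TPM and Cxcr4 at 0.330 TPM. The neutrophil attractants Cxcl1, Cxcl2 and Cxcl5 summed to 9.83 TPM against 0.0702 TPM for Cxcr2, and nearly all of this was Cxcl1 (9.62 TPM). Cxcl16, a membrane-bound ligand, was at 4.39 TPM and Cxcr6, carried by natural killer T cells and resident T cells, at 0.994 TPM. Smaller levels were found for Ccl27a and Ccl27b with Ccr10 (3.31 and 0.00542 TPM), Ccl25 with Ccr9 (3.14 and 0.0647 TPM), Cxcl9 and Cxcl10 with Cxcr3 (2.90 and 0.230 TPM) and Cxcl13 with Cxcr5 (2.57 and 0.0156 TPM).

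The order was turned for the monocyte receptor Ccr2, which was at a mean of 1.37 TPM whereas Ccl2 and Ccl12 summed to 0.743 TPM. Ccr2 exceeded these ligands in all 6 livers, with a narrow margin in Fpn-LKO replicate 1 (1.82 against 1.76 TPM). For Cx3cr1 and Cx3cl1 the levels were 0.114 and 0.101 TPM and the values of the 6 livers overlapped. Fewer cells of a type and less RNA per cell cannot be told apart in bulk tissue, and transcript levels do not measure secreted protein.

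**Figure D2:**
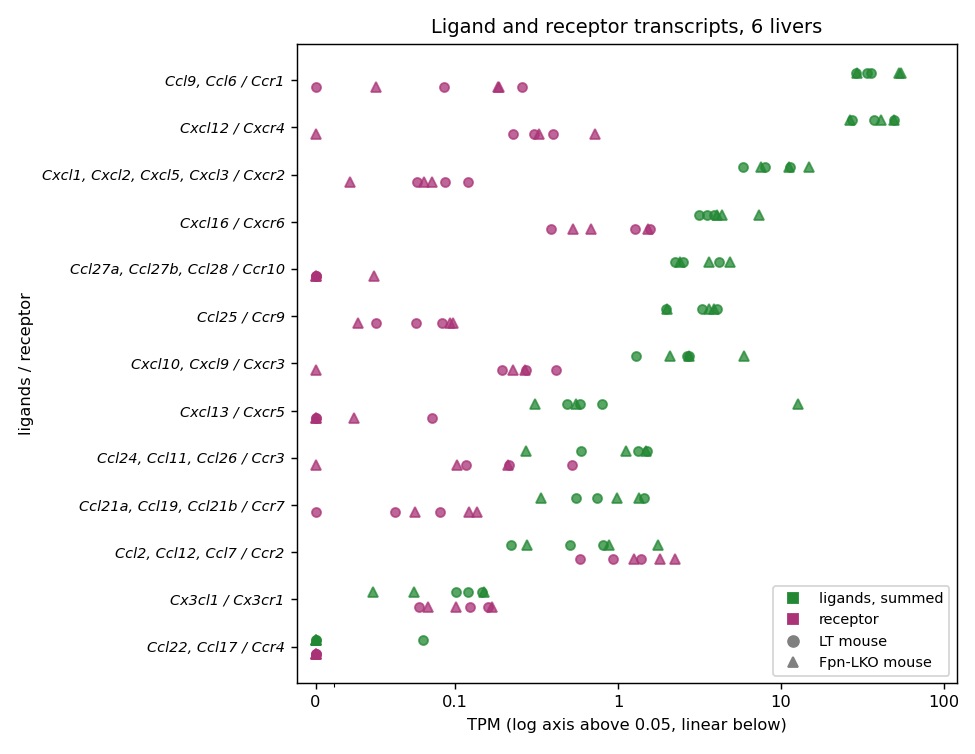
Ligand and receptor levels for 13 ligand-receptor pairings, in TPM on an axis that is logarithmic above 0.05 and linear below. Green marks are the summed ligands and purple marks the receptor, circles are LT mice and triangles Fpn-LKO mice. The ligand marks lie to the right of the receptor marks in most rows, and the row of Ccr2 shows the opposite order.

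Many of the genes lay in clusters, whose levels differed. On chromosome 11 of GRCm38, Ccl5, Ccl9, Ccl6, Ccl3 and Ccl4 (83525778 to 83664683) summed to 39.9 TPM, nearly all from Ccl9 and Ccl6. The neighboring group of Ccl2, Ccl7, Ccl11, Ccl12, Ccl8 and Ccl1 (82035577 to 82179812) summed to 0.759 TPM and had reads in 3 of its 6 genes. On chromosome 5, Cxcl5, Cxcl3, Cxcl15, Cxcl1 and Cxcl2 (90759298 to 90905938) summed to 9.83 TPM.

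The genotypes were compared for the 29 members, 18 ligands and 11 receptors, that had 0 reads in no more than 1 library. No member passed edgeR's quasi-likelihood test after Benjamini-Hochberg adjustment over all 17274 genes tested, where 4 genes did (0.0232%), and the adjusted p of the members lay between 0.982 and 0.995. DESeq2's Wald test and edgeR's exactTest also called 0 members, with lowest adjusted p-values of 0.701 and 0.891. For Cxcl13, DESeq2 gave no adjusted p. They gave 3 and 4 members an unadjusted p under 0.05, beside 5.22% and 4.60% of all genes tested. With the quasi-likelihood test, 3 members had an unadjusted p under 0.05, Ccl9 and Ccr2 among them, all with higher means under the Fpn-LKO label. This is 10.3% of the members tested, beside 4.8% of all genes in either direction and 2.62% with a higher value. Log2 fold changes were above 0 for 17 members and below 0 for 12, with a median of 0.17 against -0.0040 for all genes tested. The median turned to -0.15 without Fpn-LKO replicate 1 and was 0.47 without Fpn-LKO replicate 2.

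**Figure D3:**
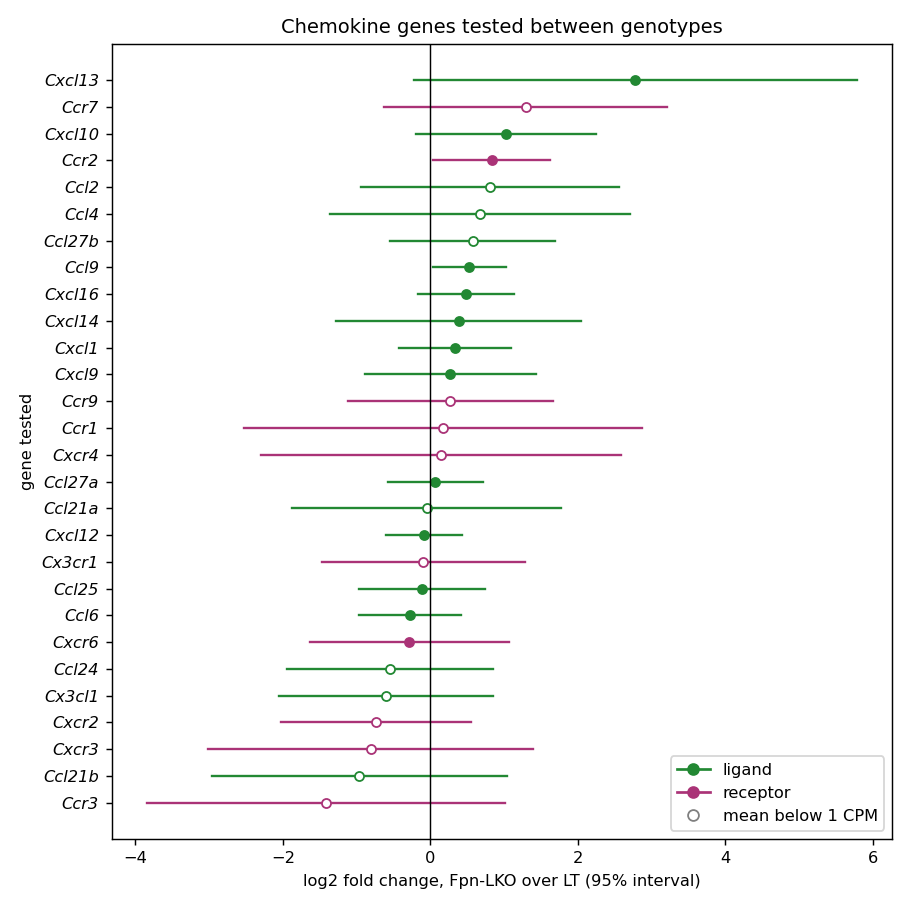
Log2 fold change (libraries labeled Fpn-LKO over LT) of 28 of the 29 members tested, with the 95% interval from the edgeR fit as a line. Green is a ligand, purple a receptor, and open circles have a mean below 1 CPM. The intervals of Ccr2 and Ccl9 lie just above 0 before adjustment, and the other 26 intervals include 0.

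Among the ligands, Ccl9 was the member with a difference that reached the unadjusted threshold. It had 54.9, 57.6 and 61.6 CPM in LT livers and 56.0, 92.8 and 102 CPM in the libraries labeled Fpn-LKO. Replicates 2 and 3 of the latter lay above all LT livers and replicate 1 lay among them, so the groups overlapped. The LT mean was 58.0 ± 3.37 CPM and the other 83.7 ± 24.5 CPM (SD, n = 3), and the LT livers were much closer to each other than the Fpn-LKO livers were. The log2 fold change was 0.53 (SE 0.21, unadjusted p = 0.0410, adjusted p = 0.982) and lay at 0.36 without Fpn-LKO replicate 3 and at 0.75 without Fpn-LKO replicate 1. Stretches of the Ccl9 transcript match those of 1014 other genes, the longest match being 194 bases at 90.2% identity, and how reads there were assigned is not stated.

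Ccl6, the neighbor of Ccl9 and a second Ccr1 ligand, did not reach the unadjusted threshold and was not compared with Ccl9 in a test. Its values were 8.46, 13.6 and 6.77 CPM in LT livers and 7.13, 6.30 and 10.3 CPM in the libraries labeled Fpn-LKO (log2 fold change -0.28, SE 0.30, adjusted p = 0.991). The highest and the lowest liver belonged to opposite groups, LT replicate 2 and Fpn-LKO replicate 2, and the sign turned to 0.061 without LT replicate 2. Ccr1 itself had 0 to 26 reads per library.

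Cxcl12 had the highest level of all members. It had 102, 82.7 and 68.5 CPM in LT livers and 92.8, 89.4 and 57.04 CPM in the libraries labeled Fpn-LKO. The groups spanned nearly the same range, and replicate 3 was the lowest in each. The log2 fold change was -0.083 (SE 0.22, 95% interval -0.60 to 0.43, adjusted p = 0.995), and changes within that interval cannot be told from 0 with 3 mice per group.

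Cxcl1, the Cxcr2 ligand with the highest transcript level among the members, had 3.98, 8.04 and 6.69 CPM in LT livers. Under the Fpn-LKO label it had 5.62, 7.15 and 10.7 CPM. The groups overlapped widely (log2 fold change 0.33, SE 0.33, adjusted p = 0.991). Without Fpn-LKO replicate 3, the highest liver, the value was 0.037. Cxcl2, another inducible Cxcr2 ligand, had 34 reads in LT replicate 2 and 13 in Fpn-LKO replicate 1 and no read in the other 4 libraries, and it was not tested. Cxcr2 had 3 to 13 reads per library.

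Cxcl16 had 4.36, 3.83 and 4.71 CPM in LT livers and 5.32, 4.18 and 8.49 CPM in the libraries labeled Fpn-LKO, with the highest value again in Fpn-LKO replicate 3. The log2 fold change was 0.48 (SE 0.28, adjusted p = 0.982) and lay at 0.15 without that liver. Its receptor Cxcr6 had 1.73, 2.38 and 0.653 CPM in LT livers and 1.05, 0.685 and 2.18 CPM under the Fpn-LKO label (log2 fold change -0.28, SE 0.58, adjusted p = 0.995). Each group held both high and low livers for Cxcr6, and its highest value was 3.64 times the lowest.

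Cxcl13, which guides B cells through Cxcr5, varied more than any other member with reads in all libraries. Its values were 0.663, 0.462 and 0.604 CPM in LT livers and 0.524, 0.257 and 11.2 CPM in the libraries labeled Fpn-LKO, or 518 reads in Fpn-LKO replicate 3 against 12 to 33 elsewhere. A single liver thus held the highest value, 43.4 times the lowest, and the other Fpn-LKO livers lay within or under the LT range. The log2 fold change of 2.78 (SE 1.29, adjusted p = 0.982) became -0.56 without that liver. Beside it, B cell and plasma cell markers summed to 21.4 CPM in Fpn-LKO replicate 3, 5.45 and 6.79 CPM in the other Fpn-LKO livers and 9.0 to 18.3 CPM in LT, and their part in the Cxcl13 value was not tested. Cxcr5 had 2 reads in that liver, 7 in LT replicate 3 and none elsewhere.

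Cxcl10 and Cxcl9, interferon-inducible ligands of Cxcr3 that are neighbors on chromosome 5, had their highest values in Fpn-LKO replicate 1. Cxcl10 had 0.944, 0.831 and 0.749 CPM in LT livers and 3.17, 1.16 and 0.840 CPM in the libraries labeled Fpn-LKO, a log2 fold change of 1.03 (SE 0.52, adjusted p = 0.982). The difference rested on that liver, since the value without it was 0.25. Cxcl9 had 3.15, 4.02 and 1.31 CPM in LT livers and 5.56, 2.25 and 2.44 CPM under the Fpn-LKO label (log2 fold change 0.27, SE 0.50, adjusted p = 0.995), and its sign turned to -0.27 without Fpn-LKO replicate 1. Art3 lies on the opposite strand and shares 133 bases with the Cxcl10 transcript. It had 1.35, 0.924 and 0.628 CPM in LT livers and 2.1, 1.67 and 1.83 CPM under the Fpn-LKO label, and the strand setting of the counting is not stated, so reads of the shared stretch cannot be told apart.

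The remaining ligands at 1 CPM or more were Ccl25, Ccl27a and Cxcl14, known from intestine and thymus, skin, and epithelia. Ccl25 had 3.62, 1.89 and 3.48 CPM in LT livers and 3.69, 2.85 and 1.77 CPM in the libraries labeled Fpn-LKO (log2 fold change -0.11, SE 0.36, adjusted p = 0.995). Ccl27a had 5.38, 4.90 and 3.29 CPM in LT livers and 6.04, 4.63 and 3.53 CPM under the Fpn-LKO label (log2 fold change 0.065, SE 0.28, adjusted p = 0.995). For Cxcl14 the values were 0.442, 1.20 and 2.01 CPM in LT livers and 0.419, 2.1 and 2.22 CPM under the Fpn-LKO label (log2 fold change 0.38, SE 0.71, adjusted p = 0.995). The groups overlapped for all 3, and the spread within a group exceeded the difference between the means. Exons of Elavl1, Il11ra1 and Zmynd15 overlap those of Ccl25, Ccl27a and Cxcl16 on the opposite strand. Ccl27a, Ccl27b, Ccl21a, Ccl21b and Ccl19 have near-identical copies (98.6% to 99.5%), and reads may have been divided among them, which leaves these values uncertain.

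Among the receptors, Ccr2, which brings Ly6c2-expressing monocytes out of the marrow and into tissue, had 3.60, 2.70 and 1.93 CPM in LT livers and 5.47, 3.04 and 6.14 CPM in the libraries labeled Fpn-LKO. Replicates 1 and 3 of the latter were above all LT livers and replicate 2 was not, so the groups overlapped. The LT mean was 2.74 ± 0.832 CPM and the other 4.88 ± 1.63 CPM (SD, n = 3). The fit gave 0.83 on the log2 scale (SE 0.34, unadjusted p = 0.0428, adjusted p = 0.982), with 0.63 to 1.08 when any 1 mouse was left out. Ccr2 lies on chromosome 9 (124101918 to 124109140). A stretch of 310 bases of its transcript is 91.0% identical to another transcript, so a part of its reads could have been assigned elsewhere.

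Markers of the cells that carry such receptors were set beside these values. The summed Kupffer cell and macrophage markers were 336, 442 and 352 CPM in LT livers and 339, 285 and 608 CPM under the Fpn-LKO label (exact two-sided permutation test, p = 0.9, where 3 against 3 cannot go below 0.1). Among the members at 1 CPM or more, Ccl9, Ccr2, Cxcl1, Cxcl13, Cxcl14 and Cxcl16 were highest in Fpn-LKO replicate 3, the liver with the highest macrophage sum. Fpn-LKO replicate 2 had the lowest macrophage sum, and its Ccl9 value was above every LT liver. The 10 markers of monocytes and recruited macrophages summed to 18.3 to 88.7 CPM in LT livers and 32.9 to 33.6 CPM in the others. Most of this sum was Spp1 in every liver, with 11.9, 11.1 and 83.1 CPM in LT livers and 20.3, 27.7 and 19.4 CPM in the others. The sum therefore describes Spp1, also a cholangiocyte gene, more than the rest of the list. Of the 10 markers, 9 were tested, with log2 fold changes above 0 for 5 and below 0 for 4. Of the 9, 2 had an unadjusted p under 0.05 and a higher mean under the Fpn-LKO label, beside 2.62% of all genes tested. They were Gpnmb (0.0803, 0.300 and 0.218 CPM in LT livers and 0.881, 0.750 and 0.733 CPM in the others) and Itgax (0.402, 0.554 and 0.411 CPM in LT livers and 2.81, 0.493 and 1.16 CPM in the others). Neither passed the adjustment. Ly6c2 had 0.382, 0.577 and 0.363 CPM in LT livers and 1.26, 0.428 and 0.797 CPM in the others. Its groups overlapped (log2 fold change 0.91, SE 0.49), and it did not reach the unadjusted threshold. The part of these cells in the Ccl9 and Ccr2 values was not tested.

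**Figure D4:**
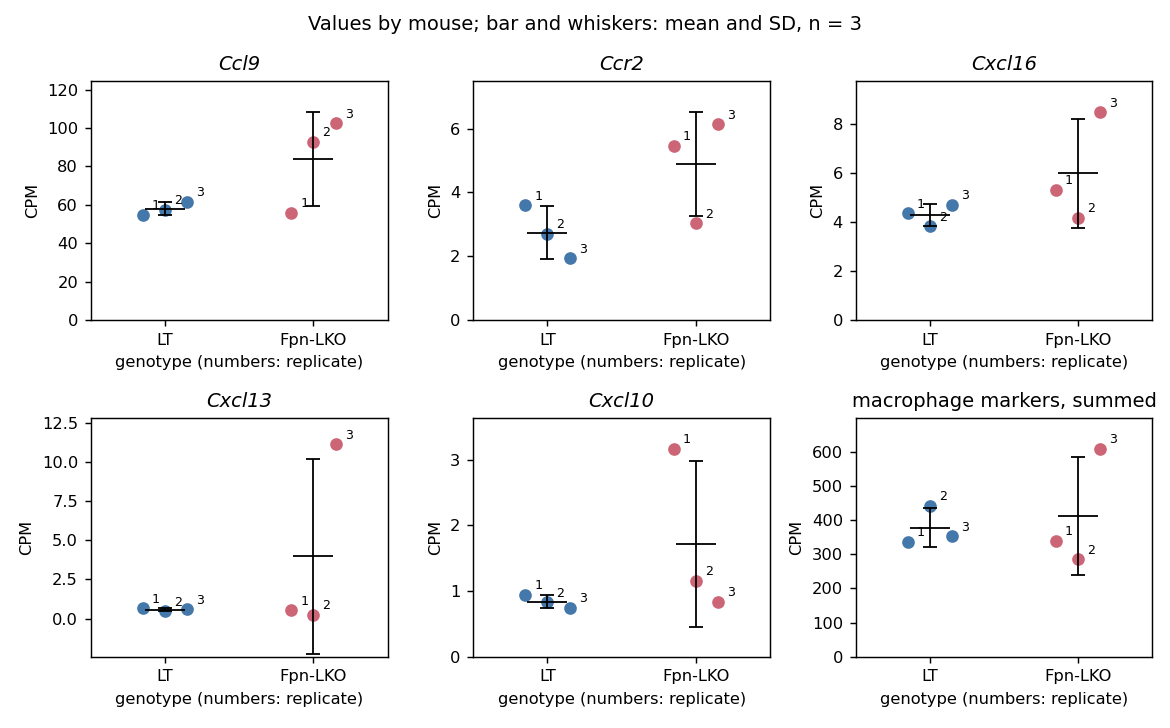
CPM of each mouse for Ccl9, Ccr2, Cxcl16, Cxcl13 and Cxcl10 and for the sum of 10 macrophage markers, with the mean as a bar and the SD as whiskers (n = 3 per group) and the replicate number beside each point. The groups overlap in each panel, a single Fpn-LKO liver stands far above the others for Cxcl13 and another for Cxcl10, and replicate 3 is the highest Fpn-LKO liver for the macrophage sum.

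The 15 tested members under 1 CPM gave log2 fold changes from -1.42 to 1.29 with SE of 0.48 to 1.16, and their lowest unadjusted p was 0.157. They were the ligands Ccl2, Ccl4, Ccl21a, Ccl21b, Ccl24, Ccl27b and Cx3cl1 and the receptors Ccr1, Ccr3, Ccr7, Ccr9, Cx3cr1, Cxcr2, Cxcr3 and Cxcr4. Ccl2, the monocyte attractant that binds Ccr2, had 24, 7 and 15 reads in LT and 55, 7 and 22 in the libraries labeled Fpn-LKO, and its log2 fold change of 0.81 had a 95% interval of -0.94 to 2.56. Ccl24, an eosinophil attractant, had 57, 64 and 28 reads in LT and 45, 51 and 10 under the Fpn-LKO label. The extremes of the range were Ccr3 (-1.42), with 26, 59 and 14 reads in LT and 27, 0 and 12 under the Fpn-LKO label, and Ccr7 (1.29), with 0 to 10 reads in any library.

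Fpn-LKO replicate 2 was listed at 0 for Cxcr4, Cxcr3 and Ccr3, which had 12 to 59 reads in the other libraries. Over all genes, a lone 0 of this kind was found in every library but was rare. Of the 14044 to 14150 genes with at least 10 reads in each other library, 18 to 33 were at 0, and 32 of 14075 in Fpn-LKO replicate 2. Of the 40 members with reads, 12 were at 0 in Fpn-LKO replicate 2 and 4 to 11 in each other library. Of the 29 tested members, 10 were highest in Fpn-LKO replicate 3, 9 in Fpn-LKO replicate 1, 8 in LT replicate 2, 1 each in the other LT livers and 0 in Fpn-LKO replicate 2. Over all genes tested these shares ran from 13.3% to 19.6% per library. The 11 members with reads that were not tested had 3 to 47 reads in all, and were Ccl3, Ccl5, Ccl11, Ccl12, Ccl19, Ccl22, Cxcl2, Cxcl5, Ccr10, Cxcr1 and Cxcr5. T cell markers were near the limit too, with a library at 0 for 8 of 9 genes. The exception was Cd4, with 0.121, 3.81 and 3.60 CPM in LT livers and 0.335, 0.214 and 0.366 CPM under the Fpn-LKO label (log2 fold change -3.02, SE 1.02, unadjusted p = 0.0197, adjusted p = 0.982). LT replicate 1 lay under all Fpn-LKO livers for Cd4, so the groups overlapped. Of the neutrophil markers, Ly6g and Ngp had no read.

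Genes around the pathway were described by lists, and 0 of their genes passed the adjustment in edgeR's quasi-likelihood test. Of 12 chemokine-related genes outside the naming rule, 9 were tested and 2 had an unadjusted p under 0.05, both with higher means under the Fpn-LKO label, beside 2.62% of all genes tested. Ccrl2, an atypical receptor that binds chemerin, had 1.10, 0.924 and 1.18 CPM in LT livers and 2.39, 1.65 and 1.64 CPM in the libraries labeled Fpn-LKO, without overlap (log2 fold change 0.82, SE 0.30, adjusted p = 0.982). Pf4, a platelet chemokine, had 0.201, 0.439 and 0.314 CPM in LT livers and 0.755, 0.407 and 0.991 CPM in the others (log2 fold change 1.17, SE 0.50, adjusted p = 0.982). Rarres2, which encodes chemerin, a leukocyte attractant made by hepatocytes, was at 527 TPM, above the summed level of all ligands among the members. It had 331, 250 and 265 CPM in LT livers and 362, 319 and 401 CPM under the Fpn-LKO label, and Fpn-LKO replicate 2 lay under LT replicate 1 (log2 fold change 0.36, SE 0.16, adjusted p = 0.982).

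Of the genes that signal below the receptors, 23 were tested and 0 had an unadjusted p under 0.05 in edgeR's quasi-likelihood test, with Gnai3 and Gnb2 the highest in level (log2 fold changes 0.13 and -0.022). Of the proteases that cut chemokines, 5 of 10 were tested and 0 reached that threshold, and the highest in level were Dpp4, which trims Cxcl12 and Cxcl10, and Adam17, which sheds membrane-bound proteins (log2 fold changes -0.098 and 0.14). Of the inducers of chemokine genes, 13 of 16 were tested and 1 reached it, Myd88, the adaptor of Toll-like receptors. Myd88 had 10.8, 10.8 and 9.52 CPM in LT livers and 15.1, 10.6 and 15.6 CPM in the libraries labeled Fpn-LKO, with replicate 2 among the LT livers (log2 fold change 0.41, SE 0.18, adjusted p = 0.982). Nfkbia, the inducer with the highest level, had a log2 fold change of -0.022.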

How the data were processed

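RNA of 6 livers (3 LT, 3 Fpn-LKO) was sequenced as paired reads of 100 bases. The labels give an input of 1 µg and a stranded mRNA kit, and the methods 0.5 µg and a stranded total RNA kit with removal of ribosomal RNA. Per the submitters' processing notes, bcl2fastq 2.20.0, FastQC 0.11.7, HISAT2 2.1.0, Bowtie2 2.3.4.1 and StringTie 2.1.3b were used with mm10. The annotation release is not given in the sources used here. The authors deposited read counts per gene, which StringTie derives from coverage, without normalization, and TPM, scaled to transcript length and library size. FPKM was deposited too and not used here.

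The deposited counts went into edgeR 4.0.16 (quasi-likelihood test, TMM scaling) in R 4.3.3. The fit left out any gene at 0 in more than 1 library, a filter of the study's methods, and the Benjamini-Hochberg adjustment covered all genes tested, with a threshold of 0.05. The SE was derived from the F statistic. The tests were tried on simulated data. Other settings tried were RLE scaling, the Wald test of DESeq2 1.42.0 with its independent filtering off, exactTest (the study's test), no filter beyond 1 read, filterByExpr, a replicate block, limma 3.58.1 on log2(TPM + 1) or log2(TPM + 0.1) where the mean TPM reached 0.1, and leaving out each mouse. Near-identical copies were searched in GENCODE transcripts (identity from 90%, aligned length from 100 bases), and 53 members were found in RefSeq GRCm38.p6, from which coordinates are given.

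Per-mouse values were given, by rule, for members with a mean of at least 1 CPM, an unadjusted p under 0.05, or groups without overlap and at least 20 reads. Of the genes these rules select, 2 are not reported here. Genes of the pathway lists were given if they had an unadjusted p under 0.05 or were the 2 highest in level. Other members given by reads, marker genes and genes that overlap members were picked with their values known. The members and lists were chosen with earlier results of these data known. Total counts of 43086184 to 47778683 make counting error small for members with many reads, where the spread between mice (common biological coefficient of variation 0.275) sets the precision. Intervals and floors cover counting error or the fit only, and PCR copies were not identified.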

Additional observations from a re-analysis of the deposited data

How the results depend on the processing

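No member passed the adjusted threshold under any of the 14 alternatives. DESeq2 gave no adjusted p for Cxcl13, so that member was not assessed there. Of the 196 pairs of a named member and an alternative, 178 kept the direction and 18 reversed. Over all genes, 4 calls became 72 with DESeq2, 63 with exactTest, 0 with the replicate block, 7 and 11 with limma on log2(TPM + 1) and log2(TPM + 0.1), and 0 to 6 when 1 mouse was left out. The 3 members with an unadjusted p under 0.05 became 1 with the replicate block, which was Ccl9, and 0 to 4 when 1 mouse was left out: 0 without LT replicate 2 or 3, and 1, Cxcl10, without Fpn-LKO replicate 3. Over all genes tested, the share under that threshold was 4.92% with the replicate block and 3.61% to 5.46% when 1 mouse was left out. The median log2 fold change of the members ranged from -0.15 without Fpn-LKO replicate 1 to 0.47 without Fpn-LKO replicate 2. The labels number the replicates and name no pairs of mice. Same-numbered livers of the genotypes had correlations of 0.13, -0.0095 and 0.045 of their deviations from the group means. Other combinations gave -0.098 to 0.061. With 3 mice per group these values cannot decide whether mice were paired, and the block changed no adjusted call of a member.

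Log2 fold changes reversed for 8 of the 14 named members. With limma on TPM (pseudocounts 1 and 0.1), Cxcl12 gave 0.028 and 0.029 and Ccl25 gave 0.027 and 0.036. When 1 mouse was left out, Cxcl12 ranged from -0.21 to 0.11 (reversed without LT replicate 1, 0.077, or Fpn-LKO replicate 3), Ccl25 from -0.38 to 0.13 (0.045 without LT replicate 1, 0.0071 without LT replicate 3, and its highest value without Fpn-LKO replicate 3), Ccl6 from -0.51 to 0.061 (without LT replicate 2), Ccl27a from -0.15 (without Fpn-LKO replicate 1; -0.12 without LT replicate 3) to 0.24, Cxcl13 from -0.56 (without Fpn-LKO replicate 3) to 3.33, Cxcl9 from -0.27 (without Fpn-LKO replicate 1; -0.071 without LT replicate 3) to 0.61, Cxcr6 from -0.87 to 0.13 (without LT replicate 2; 0.022 without Fpn-LKO replicate 2) and Cxcl14 from -0.021 (without LT replicate 1) to 0.95. The cause was not tested. With 2 mice in a group, the spread is pooled in the fit. Limits are the 3 mice per group, the low counts of most receptors and the unstated strand setting of the counting.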
